A study of Rattus norvegicus with 2 samples.

Results

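Asz1, LOC689230, Wfdc21, Stfa3, Ncf4, Ooep, Sbspon and Ccna1 are 8 of the 32883 genes counted in single cells of the rat jejunal epithelium. They were selected on their transcript counts per cell type, for near exclusive detection in CFTR high expresser cells (CHEs) of the epithelium, and because little is known of them in the gut. For Ncf4, and in rat 1 also for Wfdc21, Ooep and Ccna1, most transcripts over all barcodes lay in other cells, as given below. The choice used the counts described here, so the levels of the 8 genes across cell types are a description and carry no test. The study asked how the fate of CHEs is set and where they stand among the secretory cells of the small intestine. It took the epithelium of the proximal jejunum from healthy male Sprague Dawley rats of 6 to 8 weeks and 180 to 200 g that had been fasted overnight. There was 1 group of 2 untreated animals, with 1 droplet library of 3′ tags each, and no second condition. The epithelium was released with EDTA and dispase, and both libraries also held leukocyte-like and erythroid-like cells.

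CHEs are scattered cells of the upper small intestine that carry far more of the chloride and bicarbonate channel Cftr than their neighbors. They share the bestrophin channel gene Best4 and the proton channel gene Otop2 with a related cell of the human gut, and they make the secreted peptide uroguanylin from Guca2b. The 8 genes come from unrelated families. Asz1 belongs to the germ granules in which piRNAs silence transposons in the testis, Ooep to a complex that the oocyte stores for the early embryo, and Ccna1 encodes the A-type cyclin of male meiosis. Ncf4 encodes a cytosolic subunit of the phagocyte NADPH oxidase, which makes superoxide. Stfa3 belongs to the stefins, intracellular inhibitors of cysteine cathepsins, and Wfdc21 to the secreted WAP domain proteins, many of which inhibit proteases. Sbspon encodes a matrix protein with somatomedin B and thrombospondin repeats, and LOC689230 is a locus without an assigned role.

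RefSeq entries were found by symbol for 7 of the 8 genes, and promoter windows (250 bases before to 50 after the annotated start) for 5 of them. Shown are the windows of Asz1 and Ooep, which held the MEIS core TGACAG (capitals), and that of Stfa3, the most abundant of the 8 transcripts. They come from GRCr8, on the minus strand at chr4:47421927-47422226 for Asz1 and chr8:88104799-88105098 for Ooep, and on the plus strand at chr11:77858820-77859119 for Stfa3.
Asz1: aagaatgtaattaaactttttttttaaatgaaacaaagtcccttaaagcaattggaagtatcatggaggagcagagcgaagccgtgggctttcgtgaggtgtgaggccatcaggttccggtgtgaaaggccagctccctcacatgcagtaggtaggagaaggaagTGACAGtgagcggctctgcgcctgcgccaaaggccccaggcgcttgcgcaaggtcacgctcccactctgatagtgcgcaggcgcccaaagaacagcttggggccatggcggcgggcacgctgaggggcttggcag
Ooep: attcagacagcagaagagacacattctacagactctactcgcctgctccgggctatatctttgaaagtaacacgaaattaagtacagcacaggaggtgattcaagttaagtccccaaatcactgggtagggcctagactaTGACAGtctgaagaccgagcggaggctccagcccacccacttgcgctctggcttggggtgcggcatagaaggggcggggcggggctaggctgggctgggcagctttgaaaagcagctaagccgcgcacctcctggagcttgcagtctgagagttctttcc
Stfa3: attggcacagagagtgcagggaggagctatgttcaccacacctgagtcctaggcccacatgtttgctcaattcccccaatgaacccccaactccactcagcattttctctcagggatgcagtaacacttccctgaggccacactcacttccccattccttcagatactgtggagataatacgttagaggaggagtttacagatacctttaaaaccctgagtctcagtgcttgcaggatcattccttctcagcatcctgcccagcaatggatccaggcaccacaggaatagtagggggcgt
The first base of TGACAG lay at -85 in the Asz1 window and at -110 in the Ooep window, counted from the start site, on the strand of the gene. With both strands searched, TGACAG was present in 2 of the 5 windows and in 19.0% of all 33469 promoter windows. The letters TGGGAA of an RBPJ core, GAGGAA of a SPIB core and TATAAA were present in 25.7%, 27.6% and 14.2% of all windows and in 0 of the 5. A match of so few letters describes the sequence and nothing more.

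Rat 1 gave 12033 barcodes and rat 2 gave 8252, of which 5988 and 2230 passed the limits of the study on genes, transcripts (unique molecular identifiers, UMIs) and mitochondrial UMIs, with medians of 12200 and 13962 UMIs. Cells were clustered with the 8 genes, their related lists, Best4 and Otop2 kept out of the genes used. The class named CHE-like had 7 cells in rat 1 (0.123% of 5673 epithelial cells, 95% exact binomial interval 0.0496 to 0.254%) and 76 in rat 2 (4.54% of 1673, 3.60 to 5.65%). Of the 5 markers of this class Cftr, Best4, Otop2 and Guca2b were detected in both rats, and Car7 was at 0 UMIs in both. The CHE-like cells of rat 1 were shallower, with a median of 7314 UMIs against 13338, and together held 67531 UMIs against 1012389. With levels given as CPM, the UMIs of a gene per 1000000 UMIs of the class, 1 UMI was worth 14.8 CPM among the former and 0.988 CPM among the latter. The libraries shared 28 barcode sequences, and 0 of the CHE-like barcodes of rat 1 were among them. Intervals cover counting error only, here and below.

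In CHE-like cells the 8 genes ranged from a few UMIs in all to one of the most abundant transcripts of the cell. Stfa3 stood at 31470 CPM in rat 1 (2125 UMIs, 95% exact Poisson interval 30140 to 32830) and 48340 CPM in rat 2 (48939 UMIs, 47910 to 48770). It ranked 2 among all genes of these cells in both rats, behind Guca2b, and made up 3.15% and 4.83% of their UMIs. Wfdc21 followed at 2547 CPM (172 UMIs, 2181 to 2957) and 6995 CPM (7082 UMIs, 6833 to 7160), at ranks 47 and 17. LOC689230 came next with 977 CPM (66 UMIs, 756 to 1243) and 682.5 CPM (691 UMIs, 633 to 735). These 3 genes kept their order in both rats, with intervals that did not overlap.

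The other 5 genes lay below, and their order differed between the rats. Sbspon reached 518 CPM in rat 1 (35 UMIs, 361 to 721) and 290.4 CPM in rat 2 (294 UMIs, 258 to 326). Asz1 reached 415 CPM in rat 1 (28 UMIs, 276 to 599) and 146 CPM in rat 2 (148 UMIs, 124 to 172). The intervals of Sbspon and Asz1 overlapped in rat 1 and were apart in rat 2. Ncf4 stood at 44.4 CPM in rat 1 (3 UMIs, 9.16 to 130) and 146 CPM in rat 2 (148 UMIs), the same count as Asz1. Ccna1 stood at 74.0 CPM (5 UMIs, 24.0 to 173) and 62.2 CPM (63 UMIs, 47.8 to 79.6). Ooep had the widest gap between the animals, 222 CPM in rat 1 (15 UMIs, 124 to 366) and 26.7 CPM in rat 2 (27 UMIs, 17.6 to 38.8). For comparison, Best4 stood at 207 and 254 CPM, Otop2 at 444 and 378 CPM, and Cftr at 1777 and 2955 CPM. Stfa3 was thus far above Cftr in both rats. The measured level of Ccna1 was below that of Best4 in both, but in rat 1 this rests on 5 against 14 UMIs. Each molecule gives 1 tag at its 3′ end, so these levels were not divided by transcript length.

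The ratio of rat 2 to rat 1 took no single direction. It was above 1 for Wfdc21, at 2.75 (2.36 to 3.21), for Stfa3, at 1.54 (1.47 to 1.61), and for Ncf4, at 3.29 (1.1 to 16.1). It was below 1 for LOC689230, at 0.698 (0.542 to 0.913), for Sbspon, at 0.560 (0.394 to 0.820), for Asz1, at 0.353 (0.234 to 0.549), and for Ooep, at 0.120 (0.0616 to 0.243). For Ccna1 the interval, 0.342 to 2.68, held 1. With 1 library per animal and 7 CHE-like cells in rat 1, differences between animals, between libraries and between the few cells sampled cannot be told apart.

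**Figure D1:**
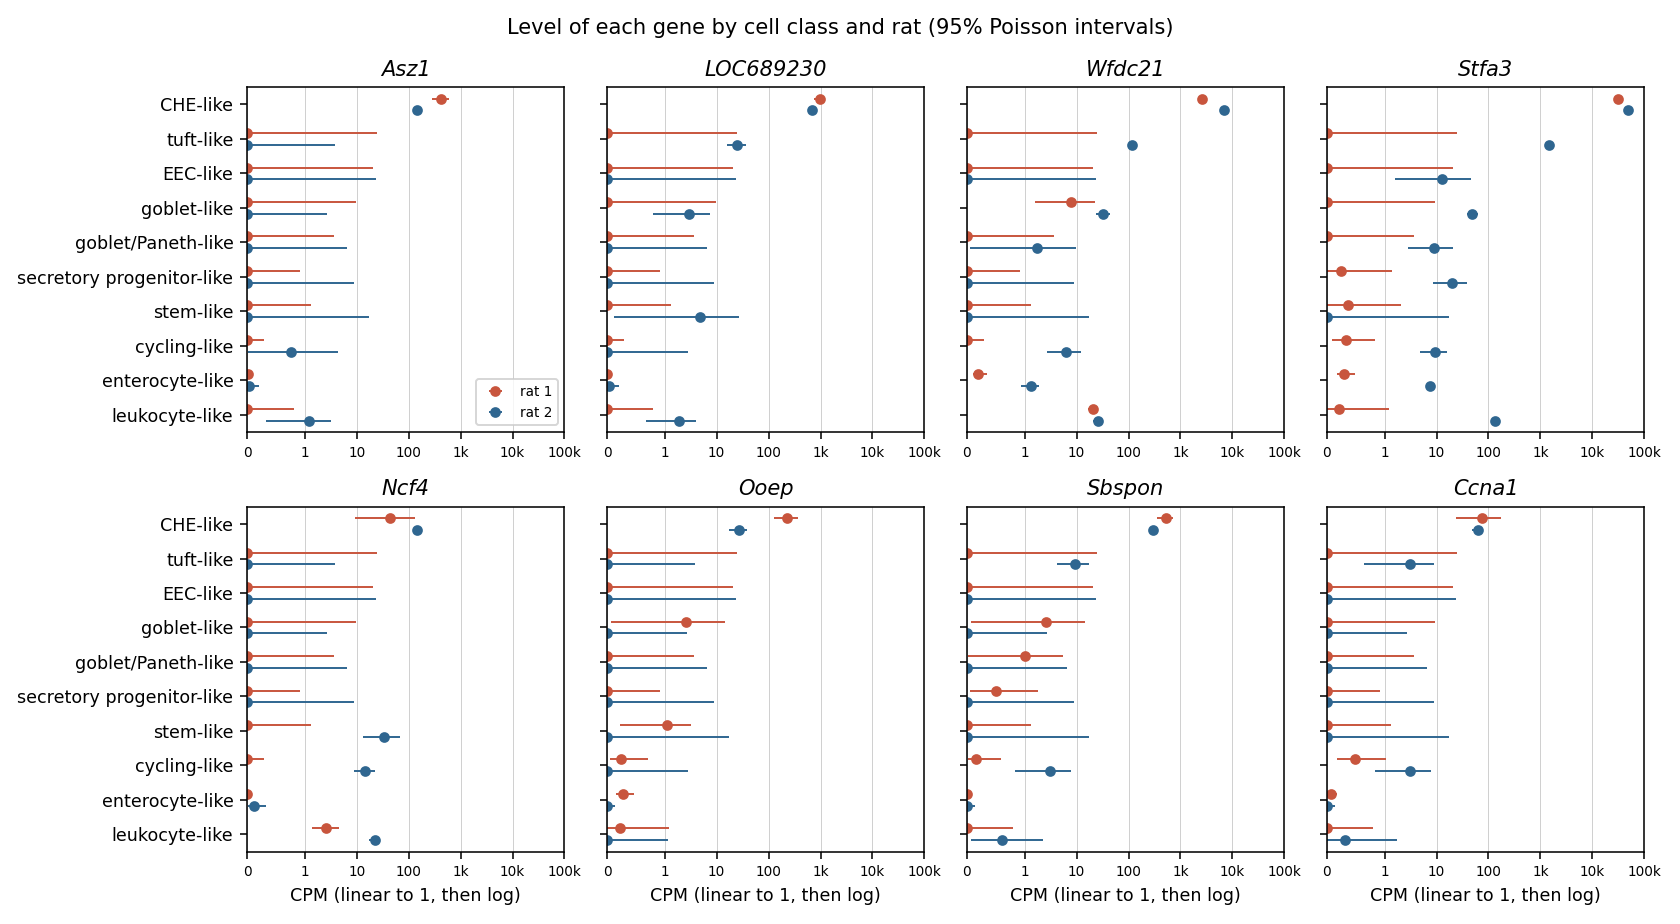
Level of each of the 8 genes in CPM (horizontal axes, linear to 1 and logarithmic above) in CHE-like cells, the 8 other named epithelial classes and leukocyte-like cells, for rat 1 (red) and rat 2 (blue), with 95% exact Poisson intervals. Among the classes shown, the measured level was highest in CHE-like cells for every gene and rat. It ran from 26.7 CPM for Ooep to 48340 CPM for Stfa3 in rat 2. The long intervals at 0 belong to classes with few UMIs.

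Within CHE-like cells the 8 genes fell into those present in nearly every cell and those present in some. Wfdc21 was detected in 7 of 7 cells of rat 1 and 76 of 76 of rat 2, with a lowest, median and highest count of 3, 24 and 48 UMIs per cell in rat 1 and 28, 86 and 216 in rat 2. Stfa3 was detected in 7 of 7 and 75 of 76 cells, with 36, 346 and 553 UMIs in rat 1 and 0, 520.5 and 1662 in rat 2. Sbspon followed with 7 of 7 and 62 of 76 cells, and 0, 4 and 16 UMIs in rat 2. Its counts were even: after each cell was thinned to 5000 UMIs, the variance over the mean was 1.08 in rat 2, close to that of pure counting.

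The counts of LOC689230 were more uneven. It was detected in 48 of 76 cells of rat 2, with a median of 2.5 and a highest count of 106 UMIs, and the 8 cells with the most LOC689230 held 52.8% of its UMIs. Its thinned variance over the mean was 10.9 in rat 2 and 3.32 in rat 1. That of the far more abundant Stfa3 was larger, 45.9 and 75.9, and the measure rises with the mean level. In rat 1 the 7 cells held 0, 1, 8, 8, 13, 18 and 18 UMIs, so that cells without and with many UMIs stood side by side in both animals. Ncf4 was likewise uneven in rat 2, where 30 of 76 cells had a UMI, the highest had 16, and 8 cells held 57.4% of the UMIs.

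The germline genes were seen at a few UMIs per cell. In rat 1 the 7 cells held 2, 3, 3, 4, 4, 5 and 7 UMIs of Asz1, so every cell had some, whereas 45 of 76 cells of rat 2 did, with a median of 1 and a highest count of 15. Ccna1 was detected in 3 of 7 and 38 of 76 cells, with at most 3 and 5 UMIs. Ooep was detected in 3 of 7 cells, each with 5 UMIs, and in 8 of 76 cells, with at most 7. The 8 cells of rat 2 held 1, 1, 1, 1, 4, 5, 7 and 7 UMIs of Ooep. Its thinned variance over the mean was 3.05 in rat 2, against 1.06 for Ccna1.

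At a common depth of 5000 UMIs per cell the shares in rat 2 were 100% for Wfdc21, 98.7% for Stfa3, 75.0% for Sbspon, 52.6% for LOC689230, 43.4% for Asz1, 32.9% for Ncf4, 26.3% for Ccna1 and 6.58% for Ooep. Before thinning they were 100, 98.7, 81.6, 63.2, 59.2, 39.5, 50 and 10.5%. The shares of Ccna1 and Asz1 differed most between the depths.

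The genes were found together in the same cells. The 7 cells of rat 1 held UMIs of 5 to 8 of the 8 genes (median 6). In rat 2 the median was 5, 74 of 76 cells held 3 or more, and 1 cell held all 8. After thinning the median was 4 and 71 cells held 3 or more. Among the 76 cells the thinned counts of the 28 gene pairs were not ordered by each other: Spearman's rho ran from -0.20 to 0.28 with a median of 0.03, as a description over cells of 1 library.

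**Figure D2:**
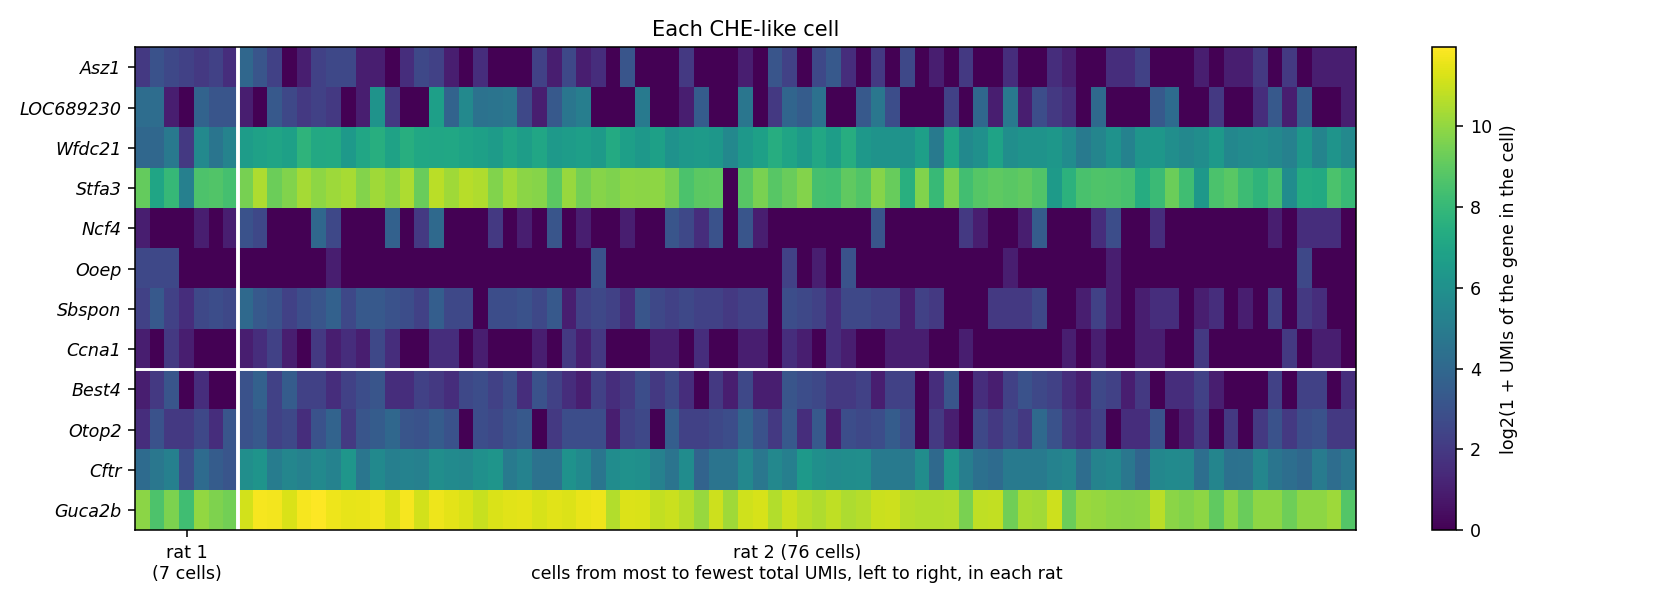
UMIs of the 8 genes, Best4, Otop2, Cftr and Guca2b (rows, color as log2 of 1 plus UMIs) in each of the 7 CHE-like cells of rat 1 and 76 of rat 2 (columns, ordered by total UMIs within each rat). Wfdc21 was present in all 83 cells and Stfa3 in all but 1, whereas Ooep appeared in 3 and 8 cells.

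Best4 and Otop2 were kept out of the clustering, but they were among the markers by which the CHE-like class was named. The 8 genes were picked for their detection in CHEs. Their presence beside Best4 and Otop2 in this class is therefore a description. In rat 2, 61 of 76 CHE-like cells held UMIs of both, 6 of Best4 alone, 6 of Otop2 alone and 3 of neither. All 3 cells with neither held 3 or more of the 8 genes. In rat 1, 4 cells held both and 3 Otop2 alone.

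Single genes were then set beside the pair. In rat 2 Best4 was found in 39 of 45 cells with Asz1 and 28 of 31 without, and Otop2 in 41 of 45 and 26 of 31. For LOC689230, Best4 and Otop2 were each found in 44 of 48 cells with it and 23 of 28 without. For Sbspon, Best4 was found in 58 of 62 cells with it and 9 of 14 without, and Otop2 in 54 of 62 and 13 of 14. Cells with Sbspon were deeper, at a median of 14082.5 UMIs against 8870, and these counts were not thinned. Ooep was detected with Best4 in 8 of 8 cells and with Otop2 in 7 of 8. These are counts over cells of 1 animal, given as a description.

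Outside CHE-like cells the 8 genes were rare, most clearly in rat 1. The 5534 cells of the other 8 named epithelial classes of rat 1 held 23 UMIs of Stfa3, 14 of Wfdc21, 0 of LOC689230, 6 of Sbspon, 1 of Asz1, 23 of Ooep, 10 of Ccna1 and 0 of Ncf4. Of these cells 69 held a UMI of 1 of the genes, and 0 of 2 or more. The 1546 such cells of rat 2 held 1723 UMIs of Stfa3, 203 of Wfdc21, 30 of LOC689230, 13 of Sbspon, 2 of Asz1, 0 of Ooep, 7 of Ccna1 and 29 of Ncf4. Of these 265 held UMIs of 1 gene, 7 of 2 genes and 4 of 3 or more.

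Most of this excess in rat 2 came from single cells. The tuft-like class of rat 2 carried 1431 Stfa3 UMIs, 1415 of them in 1 cell of 29893 UMIs that also held 113 UMIs of Wfdc21, 24 of LOC689230, 6 of Sbspon, 5 of Otop2, 1 of Best4 and 25 of Cftr. In rat 1 a cell of 18119 UMIs in an unnamed cluster held 273 UMIs of Stfa3, 16 of Wfdc21, 10 of Ooep, 2 of Asz1, 2 of Best4 and 19 of Cftr. The former thus carried 5 of the 8 genes and the latter 6, beside the CHE markers, and Ncf4 was at 0 UMIs in both.

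In all, 2 cells of rat 1 and 10 of rat 2 outside the CHE-like class held 20 or more Stfa3 UMIs. All of them also held Wfdc21 and Cftr, and 2 and 6 of them Best4 or Otop2. Their median depths, 15563 and 27331.5 UMIs, were above the 7314 and 13338 of CHE-like cells. The doublet caller marked 0 of them, but it marked only 2 of 2230 cells (0.0897%) in rat 2, against 116 of 5988 (1.94%) in rat 1, and the part of joined cells in these counts was not tested.

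CHE-like cells held 81.5% of the epithelial UMIs of the 8 genes in rat 1 and 93.8% in rat 2. These sums are mostly Stfa3, with 2125 of the 2449 CHE-like UMIs in rat 1 and 48939 of the 57392 in rat 2. The 3 and 10 other epithelial cells with a Best4 or Otop2 UMI held 85.6% and 88.9% of the rest. They held 0 of the other 30 Ncf4 UMIs in rat 2 and 0 of the other 10 of Ccna1 in rat 1. By gene the share in CHE-like cells was 95.7% and 92.8% for LOC689230, 83.0% and 93.9% for Stfa3, 80.0% and 96.7% for Asz1, 75.1% and 94.0% for Wfdc21, and 72.9% and 93.9% for Sbspon. Cftr and Guca2b, which other epithelial cells also carry, were far less confined in rat 1, at 3.40% and 3.15%, against 67.7% and 69.8% in rat 2. The rats differed in how many CHE-like cells they gave, which enters all these shares.

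Ooep and Ccna1 were the exceptions in rat 1. CHE-like cells held 31.2% of the epithelial Ooep UMIs (15 of 48, 18.7 to 46.2%) and 33.3% of those of Ccna1 (5 of 15, 11.8 to 61.6%). The other Ooep UMIs lay mostly 1 to a cell, 16 of them in 16 of 4144 enterocyte-like cells, at 0.284 CPM. Ccna1 was found at 6 UMIs in 6 of 797 cycling-like cells, at 0.485 CPM. In rat 2 the shares were 100% for Ooep (27 of 27) and 86.3% for Ccna1 (63 of 73). Per CPM, Ooep and Ccna1 in CHE-like cells of rat 1, at 222 and 74.0, were still far above these classes.

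Stfa3 in rat 2 was also spread thinly over other cells. It was detected in 14.6% of 1127 enterocyte-like cells (7.55 CPM, median depth 24278 UMIs). In the 244 erythroid-like cells, which are not epithelial, it was detected in 6.97% (10.1 CPM, 7361.5 UMIs). Thinned to 5000 UMIs the shares were 4.35% and 4.51%. For Wfdc21 they were 0.621% and 0.820% after thinning. The part of background RNA in these shares was not tested.

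**Figure D3:**
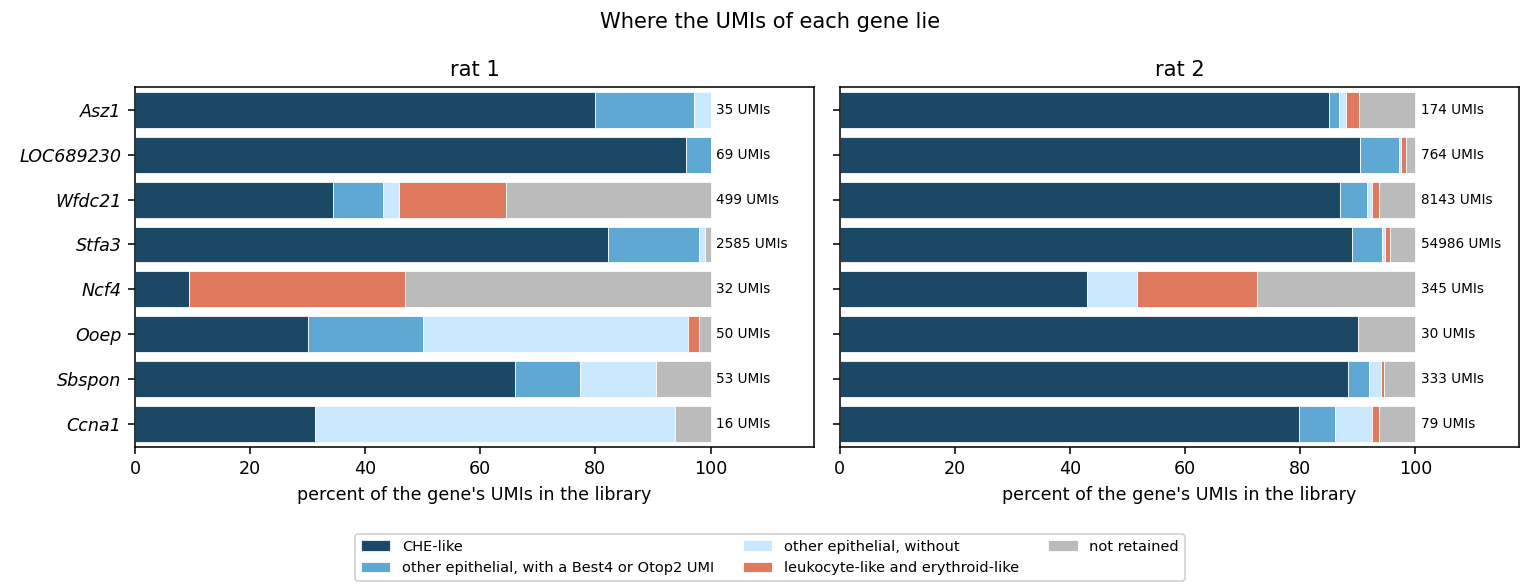
Percent of the UMIs of each gene (horizontal axes) that lay in CHE-like cells, in other epithelial cells with or without a Best4 or Otop2 UMI, in leukocyte-like and erythroid-like cells, and in barcodes not retained, for rat 1 (left) and rat 2 (right), with the total UMIs of each gene at the end of its bar. CHE-like cells held the largest part of every gene in rat 2, although for Ncf4 that part was 42.9% of 345 UMIs, so more lay outside. In rat 1 Ncf4, Wfdc21, Ooep and Ccna1 lay more outside, in totals of 32, 499, 50 and 16 UMIs.

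Ncf4 was also present in cells outside the epithelium. Counted over all barcodes, CHE-like cells held 9.38% of its UMIs in rat 1 and 42.9% in rat 2. Leukocyte-like cells held 12 UMIs in rat 1 (2.62 CPM) and 72 in rat 2 (22.2 CPM). In rat 2 the stem-like and cycling-like classes held 7 (33.2 CPM) and 19 UMIs (14.6 CPM), and the same classes carried the leukocyte gene Ptprc at 109 and 499 CPM. Of the 105 barcodes of 1000 or more UMIs with Ncf4 outside the CHE-like class of rat 2, 88 (83.8%) held Ptprc and 9 held Cftr, beside Ptprc in 45.8% of 5344 such barcodes without Ncf4. In rat 1, 4 of 13 (30.8%) held Ptprc, beside 14.1% of 9332. Of the 30 CHE-like cells of rat 2 with Ncf4, 1 held Ptprc, and all 30 held Cftr and Stfa3. Ptprc stood at 0 and 23.7 CPM in CHE-like cells, with 5 and 11 of 16 leukocyte markers detected there at a summed 696 and 770.5 CPM, against 2377 and 12690 CPM in leukocyte-like cells. In rat 2 the other named epithelial classes, stem-like and cycling-like apart, held Ptprc at no more than 5.28 CPM, below the CHE-like level.

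Wfdc21 had a further place in rat 1. CHE-like cells held 34.5% of its UMIs over all barcodes there, against 87.0% in rat 2. In rat 1, 13 barcodes of 878 to 5800 UMIs held 5 or more Wfdc21 UMIs (254 in all) with no Stfa3 and no Cftr. All 13 held Msln and Igfbp6, 12 held Col3a1, 11 held Upk1b, and 0 held Best4 or Otop2. There were 0 such barcodes in rat 2. Taken by Msln instead, the 14 barcodes of rat 1 with 5 or more Msln UMIs held 257 UMIs of Wfdc21. That was 3464 CPM, above the 2547 CPM of CHE-like cells in rat 1. The 2 barcodes of rat 2 with as much Msln held 0 UMIs of Wfdc21. These accompanying genes were chosen after their values were seen.

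Barcodes of 1000 to 5000 UMIs fell under the depth limit of the study and took no part in the clustering. In rat 1, 0 of 3317 such barcodes held Best4 or Otop2. In rat 2, 22 of 3222 did, at a median of 2409.5 UMIs and 25.4% mitochondrial UMIs, against 2828.5 UMIs and 12.7% in the 3200 others. Of the 22, 15 (68.2%, 45.1 to 86.1%) held a UMI of the 8 genes, against 425 of 3200 (13.3%, 12.1 to 14.5%). For 2 or more of the genes the counts were 12 of 22 and 20 of 3200. The groups also differed in the epithelial gene Epcam, found in 81.8% of the 22 and 38.6% of the 3200. The leukocyte gene Ptprc was found in 13.6% and 64.4%. The part of cell kind and of depth in the shares of the 8 genes was not tested. These are barcodes of 1 animal and genes picked for CHEs, given as a description.

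The abundant genes carried the gap between the 22 and the 3200 barcodes. Wfdc21 was found in 14 of 22 barcodes (63.6%) against 59 of 3200 (1.84%), Stfa3 in 12 (54.5%) against 316 (9.88%), and Sbspon in 5 (22.7%) against 4 (0.125%). Asz1 was found in 3 against 2, LOC689230 in 3 against 5, Ooep in 2 against 0 and Ccna1 in 1 against 0. Ncf4 was found in 0 of 22, which allows a share of up to 13.6%, against 62 of 3200 (1.94%). All 7 barcodes with UMIs of both Best4 and Otop2 held Wfdc21 and Cftr, and 5 held Stfa3. Among the 3200 others, Stfa3 without Wfdc21 was seen in 303 barcodes, 284 of them with 1 UMI.

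**Figure D4:**
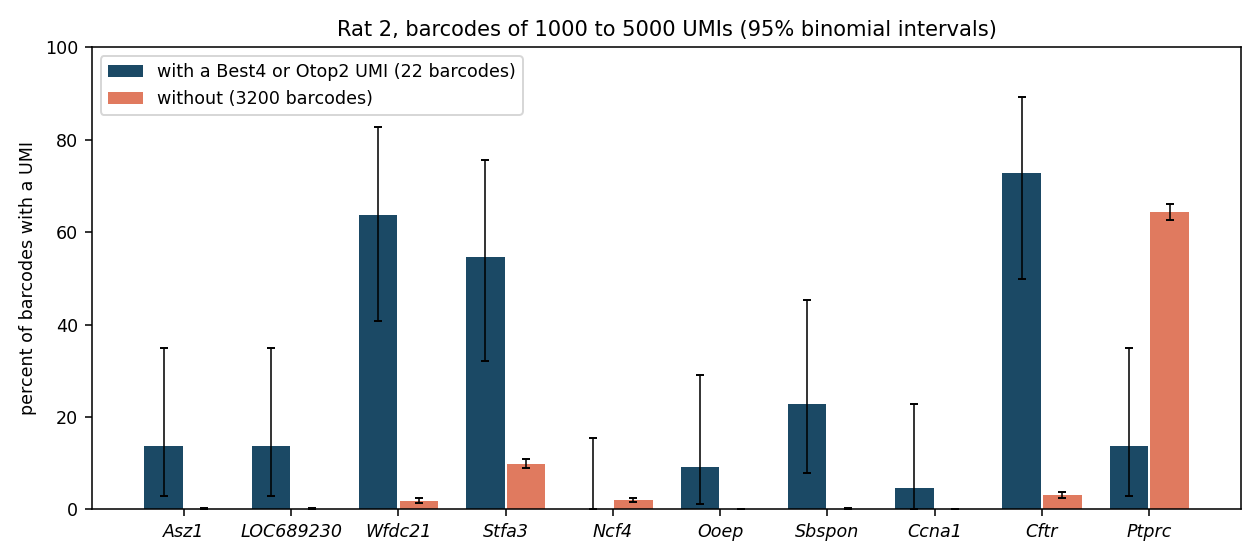
Percent of barcodes of 1000 to 5000 UMIs in rat 2 with a UMI of each of the 8 genes, Cftr or Ptprc (vertical axis), for the 22 barcodes with and the 3200 without a Best4 or Otop2 UMI, with 95% exact binomial intervals. Wfdc21 (63.6% against 1.84%) and Stfa3 (54.5% against 9.88%) stand apart in the barcodes with Best4 or Otop2, and Ptprc (13.6% against 64.4%) in those without.

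Genes related to the 8 were then compared between CHE-like cells and the mean of the 8 other named epithelial classes, on UMIs summed per rat and class. Of 9429 genes tested, edgeR's quasi-likelihood test called 592 higher (6.28%) and 165 lower (1.75%) at a Benjamini-Hochberg adjusted p under 0.05, and the median log2 fold change of all genes was -0.22. With the rat as a replicate block 1188 genes were called in place of 757. The same cells had been clustered, without the listed genes, so the classes and the test are not fully independent. All 8 genes passed the filter on low counts through the CHE-like sums, and no test of theirs is given. Of the related genes 40 were tested and 13 called, with and without the block.

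The families of the germline genes were mostly not detected. Of 21 measured piRNA and germ granule genes other than Asz1, 18 were at 0 UMIs in CHE-like cells, and 0 of the 2 tested were called. Tdrd7, a germ granule protein, stood at 44.4 and 57.3 CPM (log2 fold change 0.80 ± 0.49 SE, edgeR adjusted p = 0.36), and the PIWI gene Piwil4 at 2 and 0 UMIs (2.38 ± 2.21, edgeR adjusted p = 0.58). Of 10 measured genes of the maternal complex other than Ooep, 8 were at 0 UMIs, and Nlrp5 and Zbed3 had 1 UMI each, in rat 2. Over all 32883 genes, 5909 and 10249 had a UMI in CHE-like cells of rat 1 and rat 2, so a count of 0 was common there. Several listed genes, such as Ddx4 and Padi6, were also at 0 UMIs in every other named epithelial class. The detection of Asz1 and Ooep without most of their listed relatives is therefore a description.

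Of 15 tested cyclins, cyclin-dependent kinases and their inhibitors, 1 was called higher and 0 lower, beside 6.28% and 1.75% of all genes tested. The median log2 fold change of the 15 was -1.27, which counts genes at 0 UMIs. The one called was Cdk2, a kinase that binds A-type cyclins, at 1 UMI in rat 1 and 32 in rat 2 (2.09 ± 0.56, edgeR adjusted p = 0.030). The call ended under an alternative test, DESeq2 (adjusted p = 0.0504). In rat 1 the level of Cdk2, 14.8 CPM, was below the 20.2 and 20.4 CPM of tuft-like and stem-like cells. In rat 2 it was 31.61 CPM, beside 31.55 CPM in cycling-like cells. Cdk2 was found in 16 of 38 CHE-like cells of rat 2 with Ccna1 and in 7 of 38 without, which had medians of 14226.5 and 11301.5 UMIs, and the part of depth in this was not tested. Ccnd1 stood at 222 and 137 CPM (1.35 ± 0.76, edgeR adjusted p = 0.31) and Cdkn1a, an inhibitor of cyclin-dependent kinases, at 44.4 and 213 CPM (1.24 ± 0.52, edgeR adjusted p = 0.16). The mitotic genes were nearly missing: in CHE-like cells of the 2 rats Ccna2 had 0 and 0 UMIs, Ccnb1 0 and 1, Cdk1 0 and 2, Top2a 0 and 7, and Mki67 1 and 12.

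The NADPH oxidase list held 4 genes called higher and 0 lower of 9 tested, with a median log2 fold change of 1.42. Cyba, the small membrane subunit that several oxidases share, stood at 4072 and 3502 CPM (4.33 ± 0.34, edgeR adjusted p = 1.6e-06) and was found in 7 of 7 and 76 of 76 CHE-like cells. The GTPase Rac2, which activates the oxidase, stood at 533 and 467 CPM (4.31 ± 0.91, edgeR adjusted p = 0.0084), in 7 of 7 and 74 of 76 cells. In rat 2 Rac2 was higher still in tuft-like and cycling-like cells, at 832 and 689 CPM. Its relative Rac1 stood at 355 and 775 CPM (1.42 ± 0.40, edgeR adjusted p = 0.039, and 0.0551 to 0.0781 under 4 of 12 alternatives, which end the call), beside 416 and 692 CPM in goblet-like cells. Duoxa2, a maturation factor of the dual oxidase, was called (4.77 ± 0.80, edgeR adjusted p = 0.0024) at 1 and 25 UMIs, and goblet-like cells had more, 51.7 and 189.6 CPM against 14.8 and 24.7.

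The partners that bind Ncf4 in phagocytes were close to the limit of detection. Ncf1 had 0 and 3 UMIs (3.02 ± 2.99, edgeR adjusted p = 0.62), in 3 cells of rat 2 without Ncf4, and the catalytic subunit Cybb had 0 and 1. Cybc1, which helps the membrane subunits mature, had 3 and 30 UMIs (1.08 ± 0.62, edgeR adjusted p = 0.32).

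Around Stfa3, 5 of 8 tested stefins, cystatins and cathepsins were called higher and 1 lower, with a median log2 fold change of 1.73. Among the inhibitors Cst3, a secreted cystatin, stood at 1673 and 1252 CPM (2.64 ± 0.29, edgeR adjusted p = 3.3e-05) and the stefin Cstb at 681 and 812 CPM (1.62 ± 0.34, edgeR adjusted p = 0.0074). The proteases Ctsh (2.85 ± 0.45, edgeR adjusted p = 0.00096), Ctsl (2.73 ± 0.60, edgeR adjusted p = 0.011) and Ctsb (1.83 ± 0.41, edgeR adjusted p = 0.012) were also higher. Ctsl stood at 455 CPM in EEC-like cells of rat 2 against 279.5 CPM in CHE-like cells, and the EEC-like level was also the higher in rat 1. Ctsb likewise stood at 856 CPM in goblet-like cells of rat 2, against 709 CPM in CHE-like cells. The cystatin Cst6 was lower (-5.17 ± 1.15, edgeR adjusted p = 0.011), with 0 and 3 UMIs beside 11070 and 10220 CPM in EEC-like cells. The cathepsins Ctss (0.80 ± 1.51, edgeR adjusted p = 0.87) and Ctsz (-0.15 ± 0.71, edgeR adjusted p = 1) were not called. Stfa3, at 31470 and 48340 CPM, exceeded all listed relatives in CHE-like cells.

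Of 3 tested WAP domain genes, 2 were called higher. Wfdc3 stood at 266.5 and 115.6 CPM (4.41 ± 0.40, edgeR adjusted p = 7.3e-06). Wfdc1 was called (edgeR adjusted p = 8.3e-05) on rat 2 alone, where 61 of 76 CHE-like cells held 572 UMIs (565 CPM). In rat 1 Wfdc1 had 0 UMIs, which allows up to 44.4 CPM. Wfdc2, an abundant epithelial member, had 0 and 7 UMIs (-2.74 ± 1.01, edgeR adjusted p = 0.12). Of 14 measured thrombospondin repeat genes other than Sbspon, 12 were at 0 UMIs in CHE-like cells, as were most of all genes. The 1 tested, Adamtsl4, was not called (3.82 ± 1.35, edgeR adjusted p = 0.11).

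**Figure D5:**
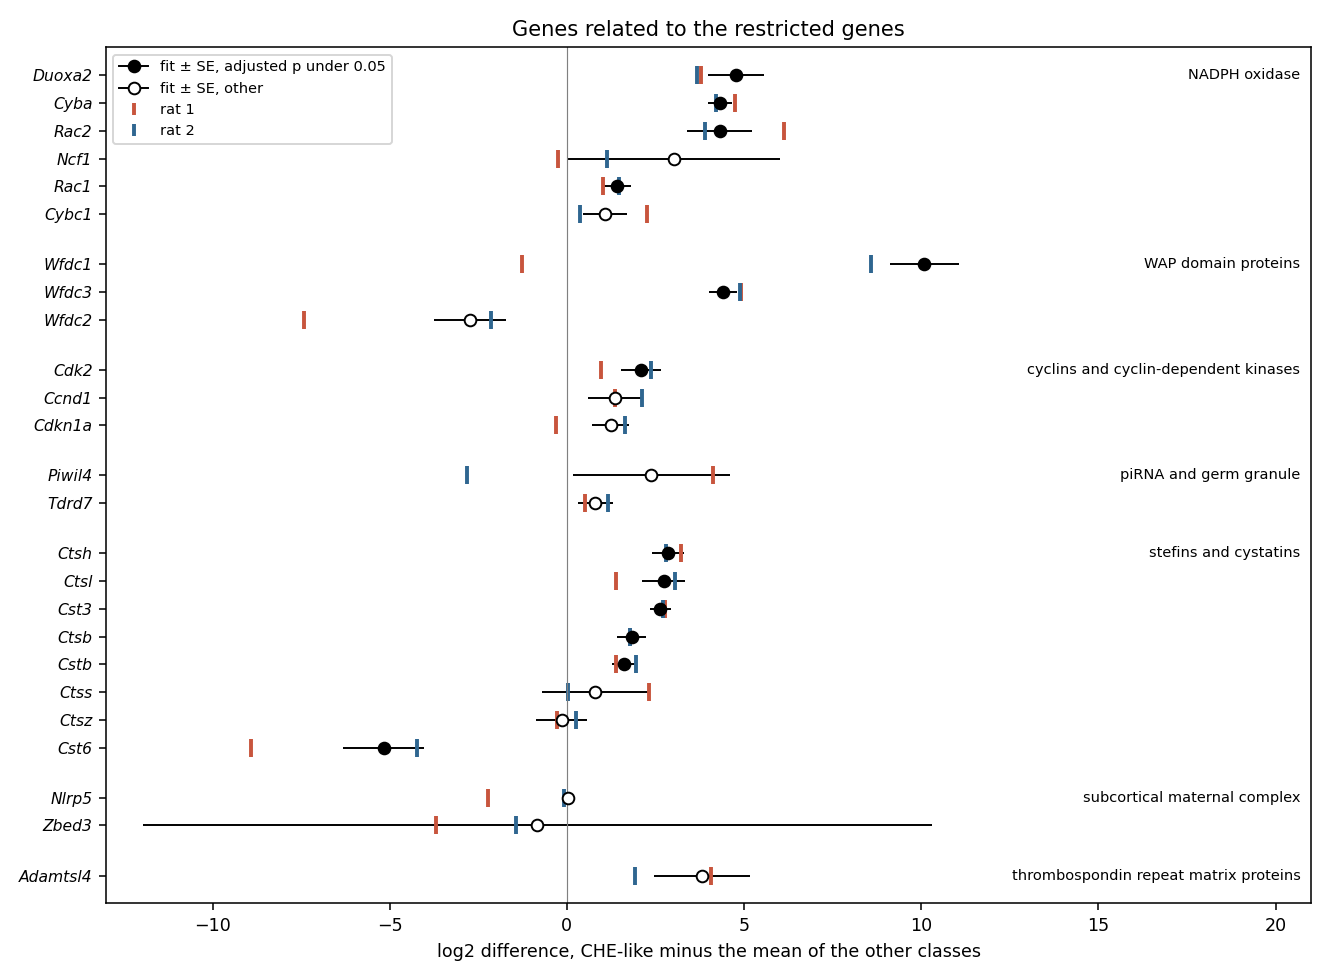
Log2 difference of CHE-like cells from the mean of the other named epithelial classes (horizontal axis) for the named genes of each related list (rows), as the fitted value ± SE (circles, filled at an adjusted p under 0.05) and within rat 1 (red ticks) and rat 2 (blue ticks). The called genes lie mostly in the NADPH oxidase list (4 of 9 tested) and the stefin list (6 of 8), and Wfdc1 lies to the right in rat 2 alone.

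The level profiles of the 8 genes over the 18 sums (9 classes in 2 rats) were compared with those of 4147 other genes by Pearson's r of log2(CPM + 10). Asz1 was most like Tnfaip2 (0.995), Otop2 (0.984) and Meis1 (0.983), and Ccna1 most like Meis1 (0.993), Tnfaip2 (0.993) and Otop2 (0.992). Sbspon was most like Otop2 (0.991), Tnfaip2 (0.990) and Best4 (0.986), and LOC689230 most like Otop2 (0.985), Gpr4 (0.982) and Ccnyl1 (0.980). Wfdc21 was nearest to Gpr4 (0.972), Reg1a (0.969) and Atp7a (0.959), and Stfa3 to Reg1a (0.977), Syt3 (0.951) and Gpr4 (0.937). Ncf4 had other neighbors, led by the leukocyte integrin gene Itgb2 (0.971) before Gkn3 (0.938) and Abcc5 (0.908), and Ooep was nearest to Cfp (0.956), Tnfaip2 (0.934) and Aif1 (0.928). The sum of the 8 followed Stfa3, with Reg1a (0.979), Syt3 (0.940) and Gpr4 (0.930). These values are descriptions, since the sums share libraries and a gene high in the CHE-like sums alone must score high.

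Asz1 lies next to Cftr in the RefSeq annotation. Asz1 had 23.3 and 4.95 UMIs per 100 Cftr UMIs in CHE-like cells of rat 1 and rat 2. In other epithelial cells it had 7 UMIs beside 3404 of Cftr (0.206 per 100) in rat 1 and 5 beside 1431 (0.349 per 100) in rat 2. Asz1 was chosen for its restriction to CHEs, so these ratios are a description of that choice. On each side of 7 of the 8 genes the nearest 2 protein-coding genes that were also counted here were looked up. Genes not counted were passed over, so a neighbor lay up to 6 annotated genes away. This was done after the data were seen and gave 28 neighbors. Of these, 17 had no UMI in CHE-like cells, where 5909 and 10249 of all 32883 genes had one in rat 1 and rat 2. Among the 13 tested, 2 were called higher and 0 lower, beside 6.28% and 1.75% of all genes tested. The 2 were Cftr and, near Ncf4, the sulfurtransferase gene Tst. Cftr is a marker by which the class was named, so its call was built in. Tst stood at 59.2 and 88.9 CPM in CHE-like cells and at most 111 and 56.3 CPM in another class (4.88 ± 0.56, edgeR adjusted p = 7.7e-05).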

How the data were processed

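UMI counts per gene and barcode of 2 jejunal libraries, 1 per rat, were used as the authors deposited them. The authors made the counts with Cell Ranger on rn6; the matrix headers give software version 3.1.0 for rat 1 and 5.0.1 for rat 2. Cells with over 200 and under 5800 genes, over 5000 UMIs and at most 40% mitochondrial UMIs were kept (5988 and 2230). Seurat 5.3.0 (R 4.3.3) integrated the rats and clustered on 2000 variable genes and 20 components, at resolution 0.3 and then 0.5, without the 8 genes, their related lists, Best4 and Otop2. Classes were named from marker lists with thresholds set after the clusters were seen, and clusters with Ptprc in over 50% of cells were called leukocyte-like. Doublets called by Scrublet (scanpy 1.11.5) were kept. Summed counts were tested with edgeR 4.0.16 (TMM, filterByExpr), as CHE-like minus the mean of the other classes. Sums of the same animal are paired: their deviations correlated over all 36 class pairs (median 0.349, lowest 0.176). In simulated counts 200 genes carried a log2 change of 3. The test recovered 162 of the 195 it could test, among 8755 genes, with 4.14% false calls. The simulated classes shared 1 mean profile and had no effect of the rat, so these rates need not hold for the real sums.

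The 8 genes and all lists were chosen with earlier results of these data known. Motifs and neighboring genes were chosen after the data were seen, and 2 libraries without technical repeats limit every comparison to these 2 animals. Named beside the 8 were the CHE markers; of each list the called genes (at most 6 per direction) and the 2 others with the highest CPM in CHE-like cells; and the 3 genes most like each of the 8, among genes with 20 or more CHE-like UMIs. Other genes named were chosen after their values were seen. Intervals are exact 95% Poisson (levels) or binomial (shares) intervals, and 0 was bounded by 3 counts.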

Additional observations from a re-analysis of the deposited data

How the results depend on the processing

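There were 83 CHE-like cells, and 76 to 86 under other limits, clusterings and doublet removal. Leaving out 1 rat gave 7 to 76 cells, with rat 2 holding 76. CHE-like cells held 93.3% of the epithelial UMIs of the 8 genes over both rats, most of them of Stfa3. The share was 81.5 to 93.8% with 1 rat left out. It was 99.2% without other cells that had a Best4 or Otop2 UMI, an alternative chosen after seeing the data. The mean share of CHE-like cells with a UMI of each gene, after thinning to 5000 UMIs, was 54.7%, 53.5 to 67.9% with 1 rat left out, and 64.0% without thinning. The 757 called genes became 1229 without the filter on low counts, 1188 with the rat as a replicate block and 1342 with merging in place of integration of the rats, and 630 to 1122 under the other alternatives, including DESeq2 (826). The last and first of that range, chosen after seeing the data, left out cells with a Ptprc UMI (1122) and the stem-like and cycling-like classes (630). The 13 called related genes became 11 to 17. Over 293 comparisons of 25 named related genes, 274 kept direction and side of the threshold, 6 lost and 5 gained a call, and 8 changed sign, all in genes not called. Ctss went from 0.80 to -0.37 with all variable genes allowed and -0.09 without called doublets. Ctsz went from -0.15 to 0.20 with the block, 0.60 with merging and 0.41 without stem-like and cycling-like cells. Nlrp5 went from 0.02 to -0.09 by library size only and -0.42 without those classes, and Zbed3 from -0.84 to 0.39 without them. The lost calls were Rac1 under 4 alternatives (adjusted p 0.0551 to 0.0781), Ctsl without stem-like and cycling-like cells (0.0564) and Cdk2 by DESeq2 (0.0504). The cause was not tested. Among barcodes of 1000 to 5000 UMIs with a Best4 or Otop2 UMI, the share with a UMI of the 8 genes was 68.2%, also without rat 1, 100% with UMIs of both Best4 and Otop2, and 45.5 to 70.4% under other limits. Rat 1 alone gave no such barcode with Best4 or Otop2, and leaving out a rat left the edgeR fit no residual degrees of freedom, so neither has a value.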
